A study of Homo sapiens with 26 samples.

Results

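The genes described here are 7 diagnostic markers of the germinal centre B cell: MME, SERPINA9, LMO2, GCSAM, ELL3, BCL7A and STAP1. They were listed by name, as genes used to recognise germinal centre B cells or lymphomas derived from them; the list applies no threshold on measured values, but was drawn up with earlier results of these data known. They are 7 of the 58592 genes for which reads were summed. Their levels were followed in 2 lymphoma cell lines, OCI-Ly7 and SUDHL4 (SU-DHL-4), while POU2F2 or POU2AF1 was silenced.

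POU2F2 encodes OCT2, a DNA-binding protein that recognises the octamer sequence, and POU2AF1 encodes OCA-B, a B cell coactivator that sits on octamer-bound OCT proteins and has no strong DNA binding of its own. Both are known to be needed for the germinal centre reaction, in which B cells divide, mutate their antibody genes and compete for antigen. OCI-Ly7 and SUDHL4 are both classed as germinal centre B cell type diffuse large B cell lymphoma. The markers are spread over different parts of the cell: MME (CD10) is a surface metallopeptidase, GCSAM and STAP1 are adaptors of B cell receptor signalling and migration, LMO2, ELL3 and BCL7A act in the nucleus, and SERPINA9 (centerin) is a member of the serpin family of protease inhibitors.

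All cells of the study, controls included, carried dCas9 fused to BFP and the KRAB repressor, delivered by lentivirus under the SFFV promoter (CRISPR interference, which blocks transcription from the targeted start site). They then received lentiviral guide RNAs against POU2F2, against POU2AF1 or, in the controls, non-targeting guides. Poly(A) RNA was sequenced as paired-end stranded libraries. The OCI-Ly7 libraries comprised 4 controls, 6 with POU2AF1 guides and 8 with POU2F2 guides; for SUDHL4 these numbers were 1, 1 and 2. These 22 libraries stand for 26 deposited files, since 3 pairs of files differed by about sampling noise and were each counted as 1 sample, and 1 further file held the sum of another pair. The labels do not say whether libraries came from separate cultures or clones, so a p-value here reflects only how far these samples spread, which may be technical. The labels place 5 OCI-Ly7 libraries in batch 1, the merged control replicate 1+2 and POU2AF1 knockdowns only. The other 13 are in batch 2, which holds all OCI-Ly7 POU2F2 knockdowns. All SUDHL4 libraries are of batch 1. A 48 h label is carried by replicate 3 of each OCI-Ly7 knockdown and by the left-out control file. In bulk RNA, fewer cells of a kind and less RNA per cell cannot be told apart.

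Each library held 26325730 to 59431931 estimated reads in genes, of which 7.04% to 25.8% were mitochondrial. Both targets were low where they were targeted. POU2AF1 averaged 461 CPM in OCI-Ly7 controls and 50.9 CPM in its knockdown (log2 change -3.00 ± 0.19 SE, edgeR adjusted p = 2e-07), and in SUDHL4 it was 406 and 74.1 CPM. POU2F2 averaged 278 CPM in OCI-Ly7 controls and 81.1 CPM in its knockdown (-1.57 ± 0.24, edgeR adjusted p = 0.056), and in SUDHL4 it was 303 CPM against 40.6 and 52.1 CPM. CPM are reads per 1000000 reads of the library after TMM scaling within a line. Of 8 B cell markers checked, CD79A and CD79B among them, 0 stayed below 1 TPM throughout any group. Summed markers of several other cell types moved with POU2AF1 knockdown, while others stayed similar. In OCI-Ly7, T and NK cell markers were 248 to 284 TPM in controls and 314 to 514 TPM with POU2AF1 guides. Most of this sum was TRBC2, with medians of 209 and 375 TPM, while TRAC had medians of 41.4 and 34.7 TPM. In both groups 11 of these 15 genes stayed below 1 TPM in all libraries. Medians were 2.35 and 6 TPM for myeloid markers and 1783 and 1198 TPM for plasma cell markers. For stroma and endothelium they were 33.2 and 11.2 TPM, mostly PECAM1 (32.9 and 10.8 TPM). Naive and memory B cell markers overlapped between these groups, with medians of 150 and 130 TPM. In SUDHL4 the control and POU2AF1 knockdown had 7.90 and 37.4 TPM of T and NK cell, 3.44 and 8.09 TPM of myeloid, and 170 and 257 TPM of naive and memory B cell markers. The T and NK cell difference in SUDHL4 was mostly TRAC, at 5.24 and 33 TPM. Plasma cell markers were similar in these 2 SUDHL4 groups (1042 and 1062 TPM), as were those of stroma and endothelium (80 and 82.6 TPM). The part of all these markers in the differences of the 7 genes was not tested.

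The promoter of SERPINA9 is shown first because it is the only one of the marker promoters examined that contains the octamer which OCT2 binds. The octamer, ATGCAAAT, was searched on both strands of the 300-base windows from RefSeq (GRCh38.p14), which run from 250 bases before to 50 bases after each gene's start. Windows were found for 6 of the 7 genes, none of them for LMO2. The SERPINA9 window holds the octamer 2 times, both in the reverse orientation, beginning 133 and 96 bases before the RefSeq start at 94476197. In GENCODE 29 the most abundant SERPINA9 transcript of the SUDHL4 control, ENST00000337425.9, starts at 94476247, nearer to the octamers, and the less abundant transcript ENST00000546329.1 starts at 94476333, upstream of both. The 2 stretches are given with the octamer in capitals, from the minus strand of chromosome 14, the first at chr14:94476312-94476341 and the second at chr14:94476275-94476304:
first: aataatatatcATTTGCATgtctagctgga
second: aataatatatcATTTGCATgtcttagtaat
They lie in a short direct repeat in which 25 bases before and 4 bases after the octamer are the same. Of all 35116 windows, 1.77% hold at least 1 octamer and 0.0399% hold 2 or more. These letters were not found in the windows of GCSAM, MME (4 windows), STAP1, BCL7A or ELL3. A match is a description of the sequence, and binding was not measured. The ELL3 window lies downstream of the start of its most abundant transcript.

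In coordinates of GRCh38 with the GENCODE 29 annotation, MME (ENSG00000196549) spans 155024124 to 155183729 on chromosome 3 and GCSAM (ENSG00000174500) spans 112120841 to 112133305 on the same chromosome. SERPINA9 (ENSG00000170054) is on chromosome 14 at 94462717 to 94479689, and LMO2 (ENSG00000135363) on chromosome 11 at 33858576 to 33892289. ELL3 (ENSG00000128886) is on chromosome 15 at 43772600 to 43777543, BCL7A (ENSG00000110987) on chromosome 12 at 122019422 to 122062044, and STAP1 (ENSG00000035720) on chromosome 4 at 67558728 to 67607337. Values are sums over all transcripts of each gene.

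The control cells of the 2 lines differed most in SERPINA9 and LMO2, which were abundant in SUDHL4 and near absent in OCI-Ly7. In TPM, which is corrected for transcript length and so allows genes to be ranked, the SUDHL4 control ran from MME (152 TPM) through ELL3 (130), STAP1 (86.3), SERPINA9 (75.9), BCL7A (49.8) and GCSAM (24.6) to LMO2 (11.6). In OCI-Ly7 controls the order was GCSAM (194 ± 56.0 TPM, SD, n = 4), ELL3 (136 ± 2.94), STAP1 (106 ± 10.5), MME (76.8 ± 35.0) and BCL7A (52.1 ± 9.84). GCSAM, at 141 to 254 TPM, and ELL3, at 132 to 139 TPM, lay about 1 SD of GCSAM apart, and MME, at 44.4 to 122 TPM, overlapped both STAP1 and BCL7A. SERPINA9 averaged 0.0604 TPM and LMO2 0.0200 TPM in OCI-Ly7 controls.

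**Figure D1:**
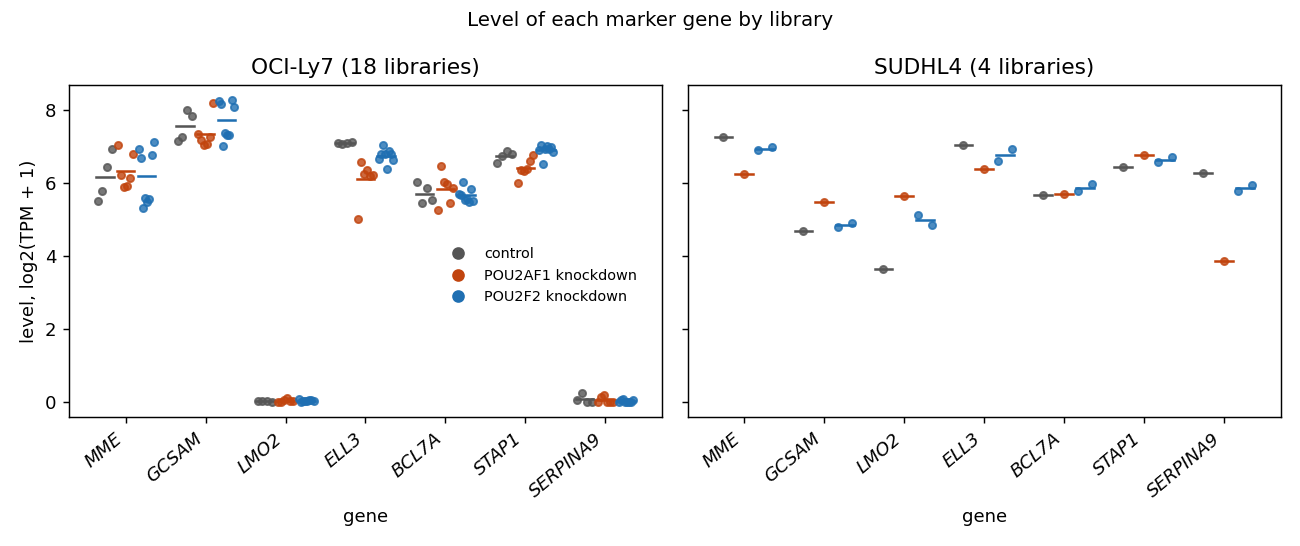
Level of each marker gene in each library, as log2(TPM + 1), for OCI-Ly7 (left, 18 libraries) and SUDHL4 (right, 4 libraries); points are libraries, colours the guide target and bars the group means. SERPINA9 and LMO2 sit at the bottom of the OCI-Ly7 panel in every library and well above it in SUDHL4, where POU2AF1 knockdown has the lowest SERPINA9 and the highest LMO2.

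SERPINA9 had 4512 estimated reads in the SUDHL4 control and 10 over the 4 OCI-Ly7 controls together. Relative to library depth this was 1276-fold higher in SUDHL4 (exact 95% counting interval 693 to 2663). Of the 10 reads, 8 came from control replicate 7, and without that library, a check added after seeing the data, the ratio was 4962 (1373 to 40989) against 2 reads. LMO2 had 728 and 3 reads, a ratio of 686 (234 to 3335). GCSAM went the other way, at 0.141 of the OCI-Ly7 level (0.134 to 0.149), or 29.5 CPM against 227 ± 58.3 CPM. These intervals cover counting error only.

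In an edgeR fit of all libraries of both lines, 3 of the 7 markers were called between the control cells, SERPINA9 (adjusted p = 4.1e-06), LMO2 (1.3e-07) and GCSAM (log2 difference -2.35 ± 0.55, adjusted p = 0.0034). The background was 23.5% of the 18918 genes tested. MME was higher in SUDHL4 by 1.43 ± 0.72 on the log2 scale and did not pass (adjusted p = 0.17). Without OCI-Ly7 POU2AF1 knockdown replicate 1, in which MME stood apart, the MME difference was 1.75 with adjusted p = 0.031. The SERPINA9 call was lost when the merged OCI-Ly7 control replicate 1+2 was left out (adjusted p = 1). ELL3 (0.12 ± 0.28), STAP1 (0.13 ± 0.18) and BCL7A (-0.25, adjusted p = 0.49) were not called. With 1 SUDHL4 control, this test assumes that it varied like the other groups. SERPINA9 and LMO2 passed the filter on low counts only through their SUDHL4 reads. A gene kept in that way is bound to differ between the lines. These calls, and the count of 3, are therefore no separate support.

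Of the other genes that lymphoma typing assays read beside MME and SERPINA9, 3 of the 5 germinal centre type genes tested were higher in the SUDHL4 control and none was lower, with a list median of 1.16 on the log2 scale. Of the 8 activated B cell type genes, 1 was higher and 6 were lower, with a median of -2.27. The median over all genes tested was -0.07, and 23.5% of them were called. In TPM, S1PR2, a receptor that confines germinal centre B cells, was 102 in the SUDHL4 control and had a median of 27.8 in OCI-Ly7 controls. IRF4, the transcription factor stained as MUM1, was 0.441 and 66.9 TPM.

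In OCI-Ly7, POU2AF1 knockdown lowered ELL3 and left no other marker past the test. ELL3 belongs to the ELL family of elongation factors, which release paused RNA polymerase and work within the super elongation complex. ELL3 stood at 150, 172, 147 and 148 CPM in the controls, and at 48.0 at the lowest, 86.8 at the median and 89.6 at the highest in the 6 POU2AF1 knockdown libraries. The groups did not overlap, and every knockdown library lay below every control. The share of all genes that separate in this way is not given here, so the separation is a description only. The log2 change was -0.89 ± 0.16 (SE, edgeR quasi-likelihood test with batch as a term, Benjamini-Hochberg adjusted p = 0.0081).

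ELL3 was 1 of 5 markers tested, against a background of 0.887% called among 16001 genes, or 0.606% called lower. The call was lost within batch 1 alone (-0.93, adjusted p = 0.46) and within batch 2 alone (-0.84, adjusted p = 0.17), and without the merged control replicate 1+2 (-0.84, adjusted p = 0.46). With the series marks as a block the change was -0.92 ± 0.16 (edgeR adjusted p = 0.0033, 5.59% of genes called). It was lost too with limma on log2(TPM + 1), at -0.95 with adjusted p = 0.099, and the direction held under each of these settings. Set against the control of their own series mark, which some labels carry, both comparable POU2AF1 knockdown libraries were lower. The differences were 0.96 and 0.82 on the log2 CPM scale. The larger was against control replicate 7, which had the highest ELL3 of the controls.

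ELL3 in the POU2F2 knockdown lay between the other groups. Its 8 libraries ran from 104 to 150 CPM with a median of 132 and a mean of 129 ± 15.5 (SD, n = 8), beside 154 ± 11.9 in controls (n = 4) and 80.7 ± 16.2 in POU2AF1 knockdown (n = 6). In 7 of the 8 ELL3 was below every control, and in 8 of 8 it was above every POU2AF1 knockdown library. The log2 change against control was -0.28 ± 0.15 (edgeR adjusted p = 1). In TPM the 8 libraries, at 81.7 to 130, all lay below the controls, at 132 to 139. For these separations too, the share of all genes is not given. Within series, 6 of 6 comparable libraries were below their control, by 0.13 to 0.73 on the log2 CPM scale. Libraries of a series share a control, so these are not 6 separate comparisons. The largest difference was against control replicate 7, whose ELL3 of 172 CPM stood above the other controls. Against POU2AF1 knockdown directly, ELL3 was 0.61 ± 0.17 higher, which did not pass over all genes (edgeR adjusted p = 0.33).

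**Figure D2:**
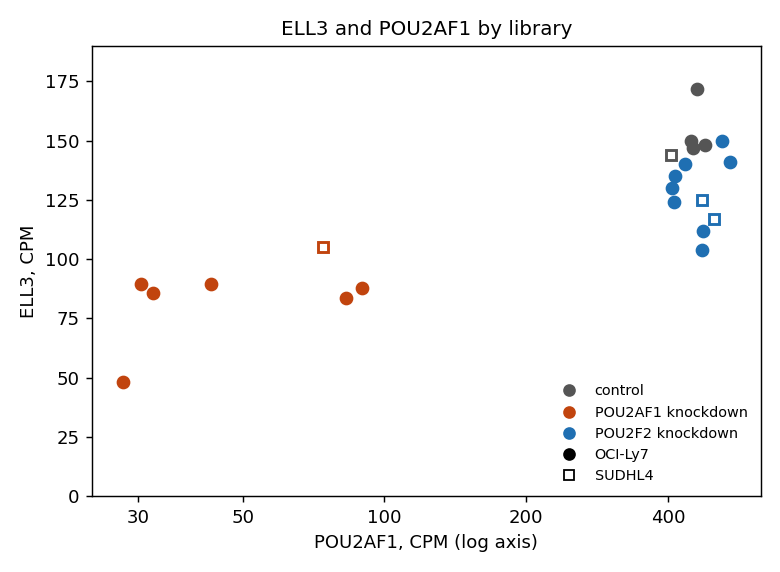
ELL3 against POU2AF1 in each library, both in CPM scaled within a line, with POU2AF1 on a log axis; filled circles are OCI-Ly7, open squares SUDHL4, and colours the guide target. The 6 OCI-Ly7 libraries with POU2AF1 guides lie at the lower left at 48.0 to 89.6 CPM of ELL3, and all other OCI-Ly7 libraries lie at 104 CPM or above.

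In SUDHL4, ELL3 was 144 CPM in the control, 105 CPM in the POU2AF1 knockdown, and 117 and 125 CPM in the POU2F2 knockdowns. The order of the conditions was the same as in OCI-Ly7. The POU2AF1 response of ELL3 differed between the lines by 0.43 ± 0.36 (SUDHL4 minus OCI-Ly7, edgeR adjusted p = 0.81), and the POU2F2 response by 0.00 ± 0.31 (adjusted p = 1).

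The ELL3 gene overlaps 2 genes on the opposite strand, SERF2 over 457 bases at its start and PDIA3 over 680 bases at its end. SERF2 itself fell in OCI-Ly7 POU2AF1 knockdown, from 632 to 410 CPM (-0.47 ± 0.10, edgeR adjusted p = 0.035), while PDIA3 was at 450 and 445 CPM (-0.01 ± 0.30). A readthrough gene on the same strand, ENSG00000262560, averaged 2.08 CPM in controls and 1.17 in the knockdown. The kit marks strand, but the strand setting of the quantification is not given in the sources used here. The part of the overlaps in the ELL3 values was not tested. The coding transcript ENST00000319359.8 held 56.7% to 73.6% of ELL3 TPM in OCI-Ly7 controls and 60.8% to 75.5% in POU2AF1 knockdown. Its own level was 78.8 to 100 TPM in controls and 23.7 to 63.1 TPM in the knockdown, so the lower gene level was present in this transcript too.

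Of the ELL family and super elongation complex, 13 genes were tested in OCI-Ly7 POU2AF1 knockdown and 1 was lower, EAF2, an ELL-associated factor (32.6 to 12.7 CPM, -1.22 ± 0.23, edgeR adjusted p = 0.012). The list median was 0.06, beside a median of 0.00 over all genes, of which 0.887% were called.

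STAP1, an adaptor that is phosphorylated by the Tec kinase below the B cell receptor, was not called in OCI-Ly7. It was 105, 119, 110 and 105 CPM in controls, 79.4 to 105 CPM with a median of 96.2 in POU2AF1 knockdown, and 99.2 to 135 CPM with a median of 126 in POU2F2 knockdown. The groups overlapped: with POU2F2 guides 6 of 8 libraries were above every control, but replicate 3, at 99.2 CPM, was below all of them. The log2 changes were -0.14 ± 0.11 and 0.12 ± 0.10, both with edgeR adjusted p = 1. Between the knockdowns the difference was 0.26 ± 0.11 (edgeR adjusted p = 1). With the series marks as a block it was 0.30 ± 0.07 with adjusted p = 0.053, and the 201 genes then called made 1.26%. Within series, 6 of 6 POU2F2 knockdown libraries were above their control by 0.06 to 0.26, and both POU2AF1 knockdown libraries were below theirs. Libraries of a series have the same control, and the share of all genes with such a pattern is not given here.

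BCL7A, a subunit of BAF chromatin remodelling complexes, was not called in OCI-Ly7 either. Controls stood at 187, 127, 159 and 130 CPM, POU2AF1 knockdown at 124 to 220 (median 171) and POU2F2 knockdown at 125 to 184 (median 142). The groups overlapped throughout, with log2 changes of -0.01 ± 0.14 and 0.06 ± 0.12. Without the batch term these were 0.18 and -0.07. Batch 1 libraries held 151 to 220 CPM, and in batch 2 series 0 held 124 to 139, series 2 held 144 to 159 and series 3 held 125 to 130 CPM, with 156 in series 1 and 184 in the library without a mark. Of 20 genes of the BCL7 family and BAF complexes, 0 were called in OCI-Ly7 POU2AF1 knockdown, where 0.887% of all genes were.

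MME and GCSAM varied widely between libraries of one condition. MME was 100, 111, 154 and 219 CPM in controls, 131 to 427 (median 150) in POU2AF1 knockdown and 88.1 to 247 (median 143) in POU2F2 knockdown. GCSAM was 161, 197, 288 and 262 CPM in controls, 146 to 327 (median 172) in POU2AF1 knockdown and 149 to 390 (median 250) in POU2F2 knockdown. The groups overlapped for both genes. Over the 18 OCI-Ly7 libraries the SD was 49.6% of the mean for MME and 33.4% for GCSAM, beside 27.5% for ELL3, 18.4% for BCL7A and 14.1% for STAP1.

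Their levels followed the series marks, whose meaning the labels do not state. MME was 88.1 to 142 CPM in series 0 (5 libraries), 154 to 197 in series 2 (4 libraries) and 219 to 247 in series 3 (2 libraries), and each of these series held controls and at least 1 knockdown. GCSAM was 187 to 198, 288 to 342 and 262 to 303 CPM in the same series. The log2 changes were 0.45 ± 0.47 for MME and 0.09 ± 0.29 for GCSAM in POU2AF1 knockdown, and 0.10 ± 0.39 and 0.10 ± 0.26 in POU2F2 knockdown, all with edgeR adjusted p = 1. Set against the control of the same batch or series, every POU2AF1 knockdown library had more MME. The 4 libraries of batch 1 have the same control. How many of all genes show such a pattern is not given here, so it is a description only. In batch 1 the control held 100 CPM and the 4 knockdown libraries 131 to 427, in series 0 the values were 111 and 142, and in series 2 they were 154 and 195. With the series marks as a block, MME in POU2AF1 knockdown was 0.67 ± 0.36, which did not pass (edgeR adjusted p = 0.41). With POU2F2 guides, 3 of 6 libraries were below the control of their series. The highest MME value, 427 CPM, came from POU2AF1 knockdown replicate 1, which also had 25.8% mitochondrial reads. Without that library the change was 0.23 ± 0.37, and the part of the mitochondrial share in its value was not tested.

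**Figure D3:**
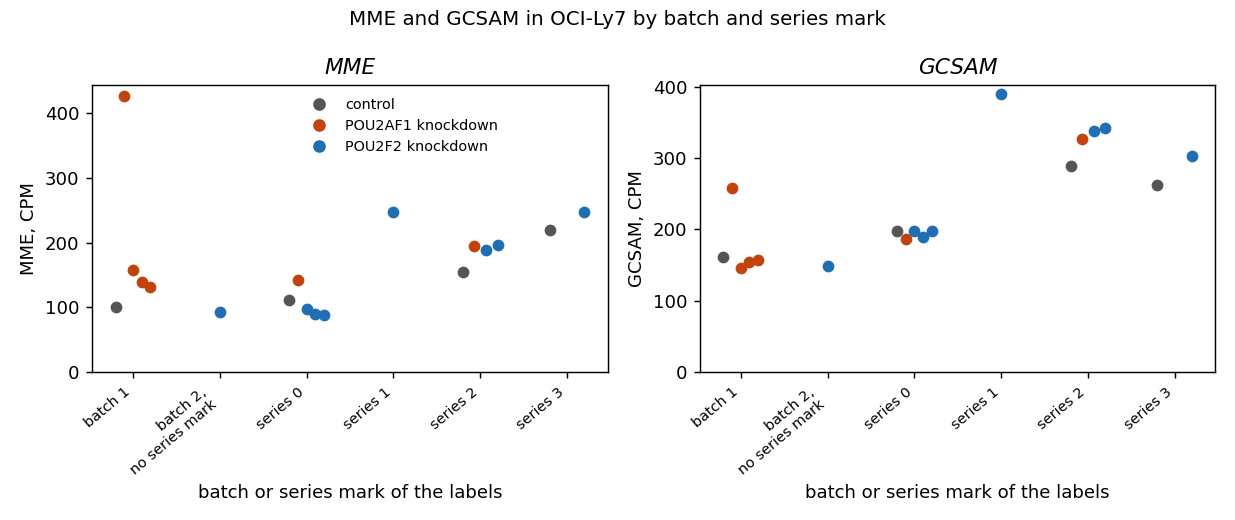
MME (left) and GCSAM (right) in CPM in each OCI-Ly7 library, arranged by batch 1 or, within batch 2, by the series mark of the labels; colours are the guide target. Libraries of one series mostly lie together, with series 0 below series 2 and 3 in both panels. Within series 0 the POU2AF1 knockdown has the highest MME, at 142 CPM.

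No marker was called in OCI-Ly7 POU2F2 knockdown, where edgeR called 0% of all genes (0 of 16001, with 283 at an unadjusted p below 0.05). Of the 5 markers tested, 0 had an unadjusted p below 0.05, and DESeq2 and limma also called 0. Counted over all genes, 5 passed in DESeq2 and 0 in limma. When the series marks entered edgeR as a block, 13 genes passed, but still 0 of the 5 markers. The fitted variation between libraries (biological coefficient of variation) was 0.297 with batch as the term and 0.146 with that block. The silenced POU2F2 itself did not pass with batch as the term, so these counts do not show an absence of response. Between the OCI-Ly7 knockdowns 0 of 5 were called against a background of 0.162%, with ELL3 and STAP1 below 0.05 unadjusted and 0 called by DESeq2 or limma. Both knockdowns were compared with the same 4 control libraries, with batch as a term. All POU2F2 knockdown libraries are of batch 2, so the merged control of batch 1 informs that comparison only indirectly. SERPINA9 and LMO2 were too low to test in OCI-Ly7, with 0 to 8 and 0 to 4 reads per library. Over all libraries of a group SERPINA9 had 10 reads in controls, 6 in POU2AF1 knockdown and 5 in POU2F2 knockdown, and LMO2 had 3, 8 and 9. Both genes stayed at this level in either knockdown.

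Of 24 other germinal centre genes tested in OCI-Ly7 POU2AF1 knockdown, 5 were lower and 0 higher, with a list median of -0.19. Over all genes 0.887% were called, and 0.606% were called lower. BCL6, the master repressor of the germinal centre programme, fell from 345 to 117 CPM (-1.44 ± 0.18, edgeR adjusted p = 0.00041). RGS13, a regulator of chemokine receptor signalling, fell from 122 to 49.3 CPM, and the nuclear GTPase NUGGC from 150 to 50.7 CPM. The transcription factor IRF8, also called, had a median of 129 TPM in controls and 53.6 TPM in the knockdown. Of 5 germinal centre type genes of typing assays, MYBL1, a MYB family transcription factor, was lower (83.2 to 31.9 CPM, -1.40 ± 0.17, adjusted p = 0.00024). Of 7 activated B cell type genes 1 was higher, CCDC50 (0.47 ± 0.10, adjusted p = 0.025). None of the 5 reference genes of these assays was called. In POU2F2 knockdown no gene of these lists was called in the fit with batch as a term, where edgeR called 0% of all genes. Between the knockdowns IRF8 (76.9 CPM in POU2AF1 and 154 in POU2F2 knockdown) and RGS13 (49.3 and 106) were higher with POU2F2 guides.

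In SUDHL4 all 7 markers could be measured. The largest differences were in SERPINA9, which was lower in POU2AF1 knockdown, and in LMO2 and GCSAM, which were higher. These comparisons rest on 1 control and 1 POU2AF1 knockdown library. In the fit of this line alone, the spread comes only from the 2 POU2F2 knockdown libraries (1 residual degree of freedom). There 7 of 7 markers were called in POU2AF1 knockdown, against a background of 36.8% of 16973 genes. In the joint fit of both lines, which takes its spread mostly from OCI-Ly7, 0 of 7 were called against 1.66%. DESeq2 called 7 and limma 5 in this line alone. The differences are therefore given as differences between these libraries, with both adjusted p-values.

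SERPINA9 was 86.1 CPM in the SUDHL4 control, 19.0 in the POU2AF1 knockdown, and 70.3 and 69.8 in the POU2F2 knockdowns. The POU2AF1 knockdown library stood apart from the other 3, at 0.221 of the control (counting interval 0.206 to 0.236). The log2 change was -2.18 ± 0.11 (edgeR adjusted p = 3e-17 within the line and 0.22 in the joint fit). Against the POU2F2 knockdown it was lower by 1.88 ± 0.10 (adjusted p = 4.8e-16, and 0.48 in the joint fit). In POU2F2 knockdown the change was -0.30 ± 0.09 (adjusted p = 0.03, and 1). The most abundant transcript, ENST00000337425.9, held 49.9% of SERPINA9 TPM in the control and 56.5% in the POU2AF1 knockdown, so its share was similar at both levels. Of the markers with a promoter window, SERPINA9 alone holds the octamer pair shown above. The part of that pair in these differences was not tested.

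LMO2, a LIM-domain protein that bridges DNA-binding partners, was 13.9 CPM in the SUDHL4 control, 67.9 in the POU2AF1 knockdown, and 44.5 and 33.1 in the POU2F2 knockdowns. All 3 knockdown libraries were above the control, at 4.89-fold (4.52 to 5.30), 3.20-fold and 2.38-fold. The log2 changes were 2.29 ± 0.26 with POU2AF1 guides (edgeR adjusted p = 0.0053, and 0.055 in the joint fit) and 1.48 ± 0.23 with POU2F2 guides (0.053, and 1). The transcript ENST00000395833.7 held 56.0% of LMO2 TPM in the control and 63.2% in the POU2AF1 knockdown.

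GCSAM was 29.5 CPM in the control, 67.6 in the POU2AF1 knockdown, and 38.0 and 35.8 in the POU2F2 knockdowns. The POU2AF1 knockdown was 2.29-fold higher (2.16 to 2.43), a log2 change of 1.20 ± 0.11 (edgeR adjusted p = 1.8e-10, and 0.41 in the joint fit). In POU2F2 knockdown it was 0.32 ± 0.10 (adjusted p = 0.038, and 1). The transcript ENST00000460387.6 held 6.13% to 14.6% of GCSAM TPM in OCI-Ly7 controls and 3.98% in the SUDHL4 control, and was listed at 0 in the 3 SUDHL4 knockdown libraries.

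MME was 353 CPM in the control, 205 in the POU2AF1 knockdown, and 288 and 283 in the POU2F2 knockdowns, so all 3 knockdown libraries were lower. The POU2AF1 change was -0.79 ± 0.12 (edgeR adjusted p = 1.8e-06, and 0.83 in the joint fit). The POU2F2 change was -0.31 ± 0.10 (0.052, and 1).

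STAP1 and BCL7A were higher and ELL3 lower by smaller amounts. STAP1 was 100 CPM in the control, 147 in the POU2AF1 knockdown, and 120 and 113 in the POU2F2 knockdowns, with a POU2AF1 change of 0.56 ± 0.11 (edgeR adjusted p = 7e-05, and 0.25). BCL7A was 143, 189, 178 and 177 CPM in the same order, with changes of 0.40 ± 0.11 (0.0044, and 0.67) and 0.31 ± 0.10 (0.043, and 1). In TPM, which is corrected for transcript length and is not TMM scaled, BCL7A was 49.8 in the control and 51.1 in the POU2AF1 knockdown. Its average effective length was 3656 and 3904 bases. The POU2AF1 change of BCL7A was 0.32 with length offsets and 0.04 with limma on log2(TPM + 1), and its call was lost in both. The ELL3 changes were -0.46 ± 0.11 (0.00087, and 0.65) and -0.25 ± 0.09 (0.1, and 1).

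In POU2F2 knockdown of SUDHL4, 3 of 7 markers were called in the fit of this line, SERPINA9, GCSAM and BCL7A, against a background of 7.35%. In the joint fit 0 were called (background 0.0951%), and the calls depended on the tool: DESeq2 called 2 (LMO2 and MME), and limma and length offsets 1 (LMO2). With RLE size factors LMO2, GCSAM and SERPINA9 were called, and BCL7A was not. All 7 had an unadjusted p below 0.05 in the fit of this line. This comparison and that of POU2AF1 knockdown use the same control library. Between the 2 knockdowns, which share no library, 4 of 7 were called against a background of 26.2%: SERPINA9 and MME were higher, and GCSAM (-0.87 ± 0.09) and STAP1 (-0.34 ± 0.09) lower, with POU2F2 guides. In the joint fit 0 of these were called (background 0.196%).

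**Figure D4:**
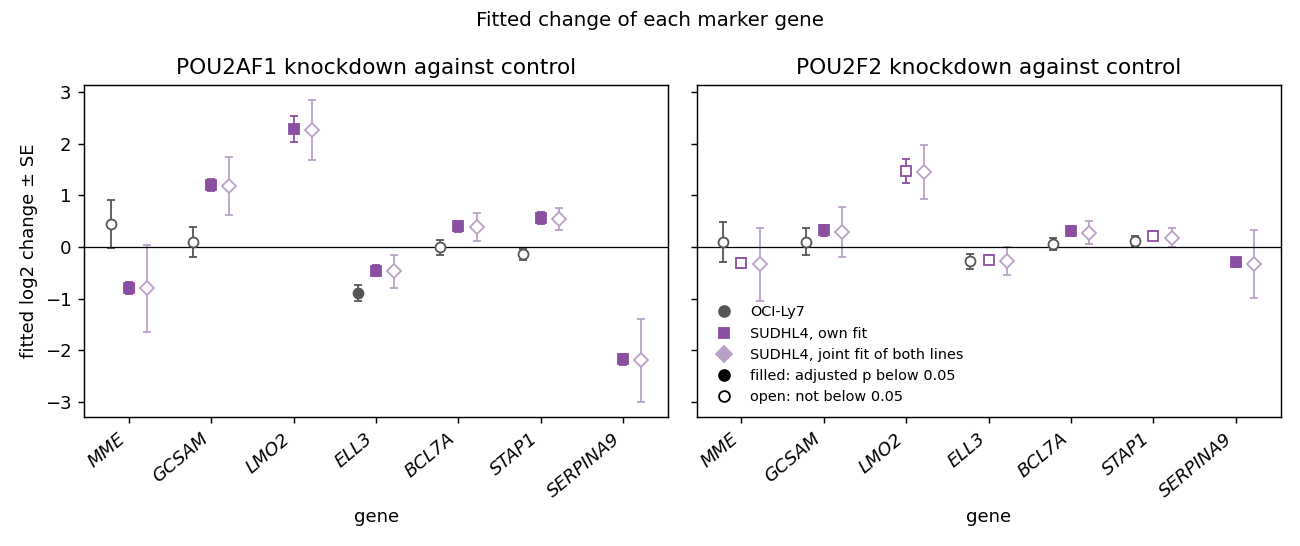
Fitted log2 change of each marker with its SE for POU2AF1 knockdown (left) and POU2F2 knockdown (right) against control, in OCI-Ly7 (circles), in the fit of SUDHL4 alone (squares) and for SUDHL4 in the joint fit (diamonds); filled symbols have adjusted p below 0.05. The SUDHL4 points of the 2 fits sit at the same height with much wider errors in the joint fit; SERPINA9 and LMO2 have no OCI-Ly7 point.

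The responses of the 2 lines were compared in the joint fit. For POU2AF1 knockdown 0 of 7 markers were called by edgeR or DESeq2 against a background of 0.798%, with STAP1 at an unadjusted p below 0.05. For STAP1 the response was 0.69 ± 0.23 higher in SUDHL4 (edgeR adjusted p = 0.22), beside fitted changes of 0.56 in SUDHL4 alone and -0.14 in OCI-Ly7 alone. GCSAM differed by 1.10 ± 0.63 (adjusted p = 0.61) and MME by -1.25 ± 0.96 (0.77). For POU2F2 knockdown 0 of 7 were called by edgeR or DESeq2 (background 0.0106%), and 0 had an unadjusted p below 0.05. limma on log2(TPM + 1) called LMO2 in both and SERPINA9 in the first, genes at near 0 in OCI-Ly7. A difference in the response of SERPINA9 or LMO2 could not be measured, because OCI-Ly7 had too few reads of either.

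Genes around the markers were counted in the same pair of SUDHL4 libraries. Of 14 genes of the STAP family and the receptor's kinases, 9 were higher and 0 lower in the fit of this line. Their median was 0.63, beside 0.01 over all genes, of which 36.8% were called in either direction. The receptor chains CD79A (450 to 945 CPM) and CD79B (236 to 491 CPM) were among those that were higher. In the joint fit 1 of the 14 was called, where 1.66% of all genes were. All 8 B cell markers were higher in that library, with a summed level of 4254 TPM beside 2338 in the control and 3179 and 3279 in the POU2F2 knockdowns. Their part in the marker differences was not tested.

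Of 24 other germinal centre genes, 14 were higher and 5 lower in SUDHL4 POU2AF1 knockdown in the fit of this line, and 2 and 1 in the joint fit. These fits called 36.8% and 1.66% of all genes. BCL6 was lower there (645 to 223 CPM, -1.53 ± 0.13, edgeR adjusted p = 1.2e-11, and 0.039 in the joint fit). ICOSLG, the ligand through which B cells engage helper T cells, rose from 26.3 to 97.8 CPM (1.90 ± 0.11, edgeR adjusted p = 0.026 in the joint fit). Of 5 germinal centre type genes of typing assays, ASB13 and MYBL1 were lower and MAML3 and ITPKB higher in the fit of this line, and 0 were called in the joint fit.

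The genes nearest in function to the other markers gave mixed counts in SUDHL4 POU2AF1 knockdown in the fit of this line. That fit called 36.8% of all genes, and the LMO2 partner, ELL and BAF lists did not exceed that share. Of 9 tested LIM-domain and LMO2 partner genes, 2 were higher (LYL1, 69.2 to 114 CPM, and TCF12) and 1 lower (SSBP4). Of 13 ELL and super elongation complex genes, 2 were higher, led by the scaffold AFF1 (4.27 to 16.1 CPM), and 2 were lower. Of 20 BCL7 and BAF genes, 2 were higher and 4 lower, SMARCB1 among the latter. Of 6 GCSAM relatives and migration genes, 2 were higher and ARHGEF28 was lower (32.5 to 6.89 CPM). Of 3 clade A serpins, SERPINA1 was higher (0.134 to 2.98 CPM) and SERPINA11 lower (1.01 to 0.194 CPM). In the joint fit AFF1 was the 1 gene of these lists that was called (background 1.66%).

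As a description of pattern, the 2 genes whose log2 CPM followed each marker most closely over the 18 OCI-Ly7 libraries, after the batch means were taken off, were picked from 16001. MME followed LRP11 (Pearson r = 0.976) and PEG10 (0.958), and GCSAM followed STN1 (0.976) and CDS2 (0.974). ELL3 followed IRF8 (0.915) and ENSG00000261158 (0.909), STAP1 followed CCDC167 (0.877) and CTSS (0.858), and BCL7A followed HES1 (0.889) and SMG1P5 (0.886). The libraries share conditions and series marks, so these values describe co-variation over both.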

How the data were processed

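The authors' deposited tables give TPM and estimated counts per transcript for 26 files. Per the submitters' processing notes, reads were handled with fastp and Salmon 1.5.1 with GRCh38.p13. The annotation and strand setting were not given in the sources used here. Both values were summed per gene with GENCODE 29, which matched 205964 of 227912 transcripts, and 98.4% to 98.9% of estimated counts per file. Estimated counts were rounded. Files of 1 group were merged where the median ratio of their difference to sampling noise was below 1.5 (3 pairs at 1.12 to 1.15, all 53 other pairs at 2.39 or more). One OCI-Ly7 control file was left out because it was the sum of 2 others within 2 reads for 92.9% of 26871 genes.

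Genes passing filterByExpr (minimum count 10) were tested with edgeR 4.0.16 (TMM, robust quasi-likelihood, Benjamini-Hochberg over all genes, called below 0.05). OCI-Ly7 was fitted with the labels' batch as a term, SUDHL4 alone, and both together with batch (the joint fit) for differences between lines. Alternatives used DESeq2 1.42.0, limma 3.58.1 on log2(TPM + 1), other scalings, filters, offsets from the deposited effective lengths, blocks and left-out libraries; leaving out controls for the line ratios was added after seeing the data. Fits were tested on simulated counts with a common spread and no batch or series effect. That test does not cover the series pattern of the OCI-Ly7 libraries. Line ratios use reads relative to library depth without TMM, with exact 95% intervals.

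The text names the 7 markers, both targets, at most 4 called genes per list and comparison (those with the largest change), transcripts holding at least 5% of a marker's TPM and the 2 best-correlated genes. S1PR2, IRF4 and the genes that overlap ELL3 were added after their values were seen. Members, lists and tests were chosen with earlier results of these data known. Some called genes of these lists are not reported here.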

Additional observations from a re-analysis of the deposited data

Results flagged for a closer look

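In groups of 4 to 10 libraries, a value was taken up where the gap to its nearest neighbour was a large share of the group's range (Dixon's criterion at 95%), which chance meets in about 1 in 20 of the 15 groups examined. ELL3 in OCI-Ly7 POU2AF1 knockdown replicate 1 was 48.0 CPM, below the 83.5 to 89.6 CPM of the other 5 libraries. Without that library the POU2AF1 change of ELL3 was -0.82 ± 0.11 (edgeR adjusted p = 0.0011). MME in the same library was 427 CPM, above 131 to 195 CPM in the other 5. That library also had the highest mitochondrial share, 25.8%. ELL3 in OCI-Ly7 control replicate 7 was 172 CPM, above 147 to 150 CPM in the other 3 controls.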

How the results depend on the processing

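Of 1092 values of the markers under other settings, 957 kept their direction and their side of the threshold, 64 lost a call, 28 gained one and 43 changed sign. In OCI-Ly7 POU2AF1 knockdown the count of 1 called marker became 0 with limma, 0 in batch 1 alone and 0 in batch 2 alone, and 0 to 1 with single libraries left out. Deviations of same-numbered OCI-Ly7 libraries had correlations of mixed sign, from -0.50 to 0.59. Several of these pairs lie in different batches, so the values do not settle whether the numbers pair libraries. For libraries of the same series mark and different guides, correlations ran from 0.30 to 0.67. With the replicate block the count was 2, MME being added at 1.79, and no other OCI-Ly7 count changed. Between the OCI-Ly7 knockdowns 0 became 2 without the batch term and 1 with POU2F2 knockdown replicate 3 (labelled 48 h, with no series mark) placed in batch 1. In SUDHL4, POU2AF1 knockdown went from 7 to 0 in the joint fit, and POU2F2 against POU2AF1 knockdown from 4 to 0. SUDHL4 POU2F2 knockdown went from 3 to 0 without a filter, 1 with length offsets and 1 with limma. It went to 7 with every file as a sample, 7 with the replicate block and every file, and 0 in the joint fit. A SUDHL4 POU2F2 knockdown library was left out only within the joint fit, where these 3 counts stayed at 0. Those zeros are therefore no separate loss of the calls. Leaving out the lone control or POU2AF1 library leaves no comparison and was not run. Between the control cells the 3 calls ranged from 2 to 4 with a library left out. For the POU2AF1 response 0 became 2 with limma and 1 with every file, and for the POU2F2 response 1 with limma. In OCI-Ly7 POU2AF1 knockdown, signs changed for GCSAM without the batch term (-0.15) and for BCL7A with DESeq2 (0.01), RLE (0.01), length offsets (0.03), no batch term (0.18) and batch 1 alone (0.02). In POU2F2 knockdown they changed for MME with limma (-0.10) and batch 2 alone (-0.03), and for BCL7A with the series block (-0.02), no batch term (-0.07), replicate 3 in batch 1 (-0.01) and the replicate block (-0.11). Between the knockdowns they changed for GCSAM with every file (-0.01) and the replicate block (-0.34), and for BCL7A without the batch term (-0.25) and with the replicate block (-0.01). The others were BCL7A between the SUDHL4 knockdowns (limma, 0.17) and STAP1 between the control cells (limma, -0.01). With single libraries left out, values that crossed 0 ranged from -0.12 to 0.27 (GCSAM) and -0.07 to 0.07 (BCL7A) in POU2AF1 knockdown, -0.03 to 0.39 (MME) and -0.01 to 0.21 (GCSAM) in POU2F2 knockdown, -0.22 to 0.27 (GCSAM) and -0.02 to 0.15 (BCL7A) between the knockdowns, and -0.05 to 0.05 (ELL3) for the POU2F2 response between lines. The cause of these changes was not tested.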
